A study of Homo sapiens with 4 samples.

Results

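Mitochondrial ribosomal proteins are the nuclear-encoded proteins of the ribosome that works inside mitochondria, and their gene symbols begin with MRPL for the large subunit or MRPS for the small subunit. Members were all genes of the deposited table whose symbol has one of these prefixes followed by a number and, in a few cases, a letter A, B or C. This rule uses no measured value. It found 78 genes among the table's 56657 entries, and left out 74 pseudogenes of the same names. By the unified nomenclature 51 of the 78 belong to the large subunit and 26 to the small subunit. MRPS18A and MRPS30 carry a small-subunit name but sit in the large subunit, and MRPS36 is a component of the oxoglutarate dehydrogenase complex rather than of the ribosome.

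The mitochondrial ribosome translates the few proteins that mitochondrial DNA encodes, all of them parts of the respiratory chain and of ATP synthase. Its RNAs come from mitochondrial DNA, while its proteins are made in the cytosol and imported. Many of these proteins descend from those of bacterial ribosomes, and others arose only in mitochondria. Inherited defects in several of these genes impair oxidative phosphorylation.

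RNA was sequenced from the established line TE5, derived from a squamous cell carcinoma of the esophagus. One group carried hairpin RNA against NUP153, a nucleoporin of the nuclear basket, and has a knockdown genotype label (shNUP153, n = 2 libraries). The other carried a control hairpin and has a wild-type genotype label (shControl, n = 2). In both groups hairpins were delivered by lentivirus, cells were selected with puromycin, and the libraries are labelled day 7. The labels do not tell whether replicates are separate infections. Their descriptions carry the tags g1 and g2 for shNUP153, and whether these mark different hairpins is not stated. The p-values therefore reflect only the variation among these libraries, which may be technical.

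The shNUP153 libraries held 25247932 and 23396626 counts and the shControl libraries 22606593 and 27396268. NUP153, the target, measured 67.9 and 81.9 CPM (counts scaled to library size, here with the TMM method) in the shNUP153 libraries, against 148.9 and 141.6 CPM in the shControl libraries, which is -0.96 ± 0.06 SE on the log2 scale (adjusted p = 1.05e-14 by edgeR). Of 9 squamous epithelial markers 8 passed the filter on low counts, among them TP63 at 231 and 238.1 CPM in shNUP153 and 250.2 and 245.7 CPM in shControl. At an adjusted p of 0.05 by edgeR, 5 of these 8 were lower in shNUP153 (62.5%) and 2 higher (25%), and TP63 did not pass. Shares of 17.4% lower and 15% higher were found over all tested genes. EPCAM fell furthest, at 111.7 and 117.2 CPM in shNUP153 and 237.3 and 225.5 CPM in shControl. KRT13 rose furthest, at 4.82 and 4.97 CPM in shNUP153 and 2.52 and 2.81 CPM in shControl. KRT14 stayed at or below 0.548 CPM in every library. Of 10 markers of other cell types 4 passed the filter, CDX2, COL1A1, MYH11 and VWF. CDX2 measured 17.2 and 19.7 CPM in shNUP153 and 20.2 and 17.3 CPM in shControl. COL1A1 measured 16.8 and 16.4 CPM in shNUP153 and 14.3 and 13 CPM in shControl. Among those that did not pass the filter, the leukocyte marker PTPRC measured 0 CPM in both shNUP153 libraries and 0.0451 and 0.113 CPM in the shControl libraries. The 10 markers summed to 39 and 41.4 CPM in shNUP153 and to 37.6 and 33.5 CPM in shControl, and 2 of the 4 tested, COL1A1 and VWF, were higher in shNUP153. Their part in the results was not tested.

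More mitochondrial ribosomal protein genes fell than rose in shNUP153 cells, by small amounts. Summed over the 78 genes, they measured 4777 and 4813 CPM in the shNUP153 libraries, against 5048 and 5164 CPM in the shControl libraries, a ratio of means of 0.939. All 78 passed the filter on low counts, so the tested members are the whole set, and each was tested by edgeR's quasi-likelihood test with p adjusted over all 16817 tested genes. At an adjusted p of 0.05, 20 members fell in shNUP153 (25.6%), 2 rose (2.56%) and 56 did not pass the test. Over all tested genes 17.4% fell and 15% rose. The median log2 fold change was -0.10 over the members and 0.01 over all tested genes, and 55 members had a negative value and 23 a positive one. In these bulk libraries less RNA per cell cannot be told apart from a smaller share of cells that express the genes.

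The differences were small. Log2 fold changes ran from -0.62 to 0.71, 68 of the 78 members lay within 0.25 of 0, and 0 reached a value of 1. The 20 members that fell were 1.1-fold to 1.54-fold lower in shNUP153, with a median of 1.16-fold, and 19 of the 22 members past the test differed by less than 1.3-fold. In 45 members both shNUP153 libraries lay below both shControl libraries, and in 8 both lay above. Over all tested genes such separation was found in 32.2% in the downward direction and in 32.2% in the upward direction. All 22 members past the test were separated in this way, as were 25 members below and 6 members above that did not pass it.

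**Figure D1:**
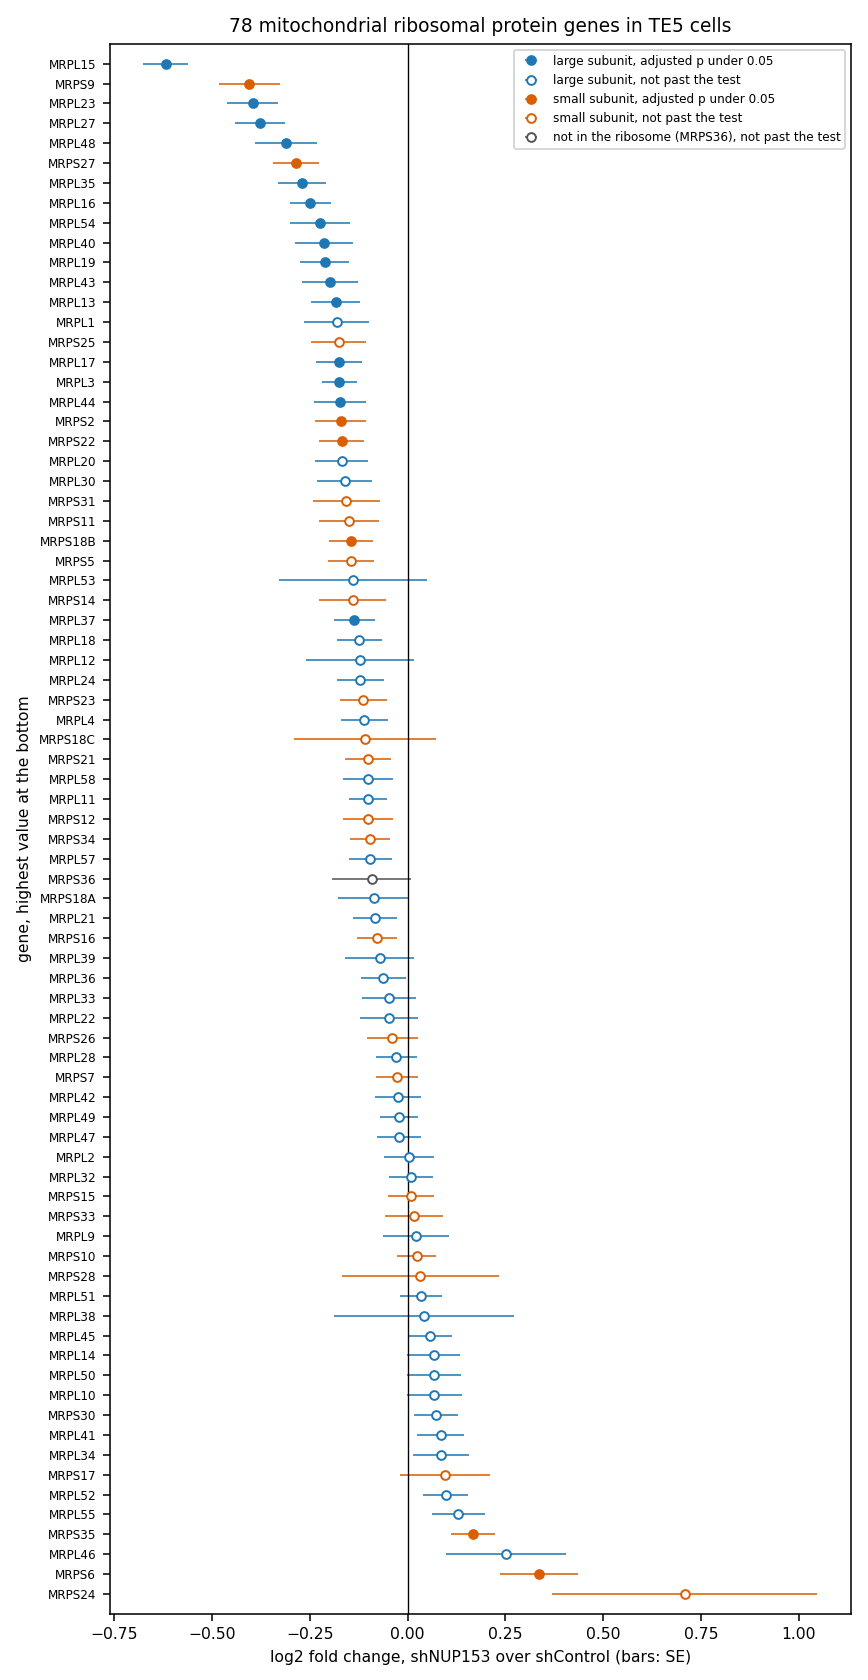
Log2 fold change of shNUP153 over shControl for the 78 mitochondrial ribosomal protein genes, one per line, with bars of 1 SE and filled points for an adjusted p under 0.05. Most points lie between -0.25 and 0.25, the 20 filled points on the left are led by MRPL15, and the 2 filled points on the right are MRPS35 and MRPS6.

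How often a gene passed the test depended on its abundance, so the members were also read against genes of like abundance. Members are well measured, with a median of 56.3 CPM and quartiles of 32.8 and 85.6 CPM. Among the 3316 tested genes between those quartiles 26% fell and 18.3% rose in shNUP153, with a median log2 fold change of -0.03. Among the 38 members in the same range 12 fell (31.6%) and 0 rose, with a median of -0.11. The share of members that fell is thus near the background of genes of like abundance and is not by itself a result about the members. That 0 of 38 rose, where 18.3% of such genes did, was not tested. Among the 13342 tested genes between the lowest and the highest member 19.1% fell and 16.5% rose, beside 25.6% and 2.56% of the members. That difference was not tested either. When all tested genes were put into 5 equal classes of abundance, the class next to the highest held 35 members, 14 that fell and 0 that rose, where 24.9% of its genes fell and 18.7% rose. The highest class held 27 members, 6 that fell and 1 that rose, where 36% of its genes fell and 17.9% rose. Within the set, Spearman's rho of log2 fold change with mean CPM was -0.00104 across the 78 genes, which share libraries and are not independent.

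The counts rest on both shNUP153 libraries and on the scaling. Without shNUP153 replicate 1, 8 members were lower (10.3%) and 1 higher (1.28%), where 10.1% of all tested genes were lower and 7.46% higher. Without shNUP153 replicate 2, 9 were lower (11.5%) and 0 higher, where 10.8% of all tested genes were lower and 8.17% higher. With either library left out the share of members that were lower was thus near that of all genes. Scaling to total counts alone gave 8 lower and 5 higher, beside 12.6% lower and 21.2% higher over all tested genes. Under that scaling 46 of the 78 members had a negative log2 fold change. Higher calls were 62.8% of all calls with it and 46.3% under TMM scaling. The set as a share of all counts was 0.491% and 0.488% in shNUP153, against 0.495% and 0.503% in shControl. The median over the members lay below that over all genes by 0.10 on the log2 scale under both scalings. A change of scaling shifts all genes by nearly the same amount, so it could not have moved this gap.

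**Figure D2:**
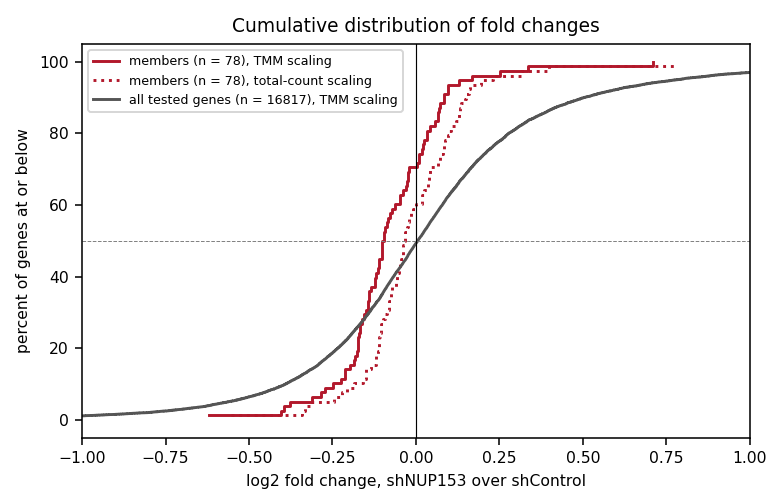
Percent of genes at or below each log2 fold change (shNUP153 over shControl). Red curves are the 78 members under TMM scaling (solid) and total-count scaling (dotted). The grey curve is all 16817 tested genes under TMM scaling. Under total-count scaling the median over all tested genes, not drawn, was 0.07. The members' curve is steeper than that of all genes and crosses 50% at -0.10 under TMM scaling and at -0.04 under total-count scaling.

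Promoters are shown for the members with the smallest p in each direction that have an entry in the RefSeq promoter table, 3 that fell and the 2 that rose, so that a reader can see what sequence lies at the genes the results turn on. Each run is 300 bases, 250 before to 50 after the annotated start, 5′ to 3′ on the gene's strand in build GRCh38.p14. Capitals mark matches to 3 strings searched on both strands: CCGGAAG, a core bound by ETS-family factors such as GABP, GCATGCG, the core of the NRF1 site, and ATGGCGG, the core of the YY1 site. Both GABP and NRF1 are known regulators of nuclear genes for mitochondrial proteins. The MRPL27 run lies on the minus strand at chr17:50373135-50373434, that of MRPS9 on the plus strand at chr2:105037819-105038118, and that of MRPS27 on the minus strand at chr5:72320191-72320490. The MRPS6 run lies on the plus strand at chr21:34073328-34073627 and that of MRPS35 on the plus strand at chr12:27710582-27710881.
MRPL27: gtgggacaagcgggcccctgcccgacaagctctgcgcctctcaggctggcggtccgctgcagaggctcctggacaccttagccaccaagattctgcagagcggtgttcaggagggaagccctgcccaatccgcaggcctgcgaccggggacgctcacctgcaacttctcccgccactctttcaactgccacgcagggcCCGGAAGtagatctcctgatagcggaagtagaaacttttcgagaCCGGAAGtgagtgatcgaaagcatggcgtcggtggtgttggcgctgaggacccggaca
MRPS9: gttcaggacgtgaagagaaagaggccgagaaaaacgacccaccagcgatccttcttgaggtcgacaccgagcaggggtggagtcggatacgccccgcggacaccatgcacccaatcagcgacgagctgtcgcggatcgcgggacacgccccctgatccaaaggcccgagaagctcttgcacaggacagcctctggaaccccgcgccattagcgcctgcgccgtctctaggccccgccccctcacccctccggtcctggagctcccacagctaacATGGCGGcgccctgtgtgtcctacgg
MRPS27: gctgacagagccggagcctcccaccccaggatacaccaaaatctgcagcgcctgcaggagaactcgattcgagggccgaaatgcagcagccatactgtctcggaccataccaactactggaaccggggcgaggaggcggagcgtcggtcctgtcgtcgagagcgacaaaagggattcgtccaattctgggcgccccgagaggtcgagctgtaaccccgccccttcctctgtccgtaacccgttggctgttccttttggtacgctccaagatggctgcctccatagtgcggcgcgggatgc
MRPS6: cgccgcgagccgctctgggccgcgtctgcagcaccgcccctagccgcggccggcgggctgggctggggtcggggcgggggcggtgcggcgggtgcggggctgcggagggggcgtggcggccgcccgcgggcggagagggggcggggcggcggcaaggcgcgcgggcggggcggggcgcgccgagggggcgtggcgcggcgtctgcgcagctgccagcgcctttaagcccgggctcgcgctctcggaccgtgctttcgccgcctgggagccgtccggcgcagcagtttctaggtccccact
MRPS35: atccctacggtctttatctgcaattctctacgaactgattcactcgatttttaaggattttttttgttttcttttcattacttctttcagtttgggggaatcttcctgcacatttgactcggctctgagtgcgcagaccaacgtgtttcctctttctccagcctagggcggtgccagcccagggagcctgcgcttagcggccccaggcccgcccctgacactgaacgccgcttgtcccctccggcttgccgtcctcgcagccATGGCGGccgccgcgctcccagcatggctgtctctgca

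MRPL27 held 2 ETS strings, MRPS9 and MRPS35 each held 1 YY1 string close to the start, and MRPS27 and MRPS6 held none of the 3. The MRPS6 window was 82% G and C, the highest value among the members' promoters. The table had 85 promoters for 69 of the 78 members, some genes having several starts, and the other 9 were MRPL2, MRPL10, MRPL13, MRPL15, MRPL21, MRPL23, MRPL35, MRPS28 and MRPS36. Of the 85 promoters 38.8% held the ETS string, against 10.3% of all 35116 promoters and 15.9% of the 16089 promoters of tested genes. The YY1 string was in 29.4%, against 5.55% of all promoters and 8.68% of those of tested genes. For the NRF1 string the shares were 8.24%, against 3.91% and 5.39%. At least 1 of the 3 strings was present in 60% of the members' promoters, against 17.5% of all promoters and 26.2% of those of tested genes.

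Members that fell and members that did not pass the test both held these strings often. The ETS string was in 9 of 19 promoters of members that fell and in 24 of 64 promoters of members that did not pass. The YY1 string was in 4 of 19 and 20 of 64, and the NRF1 string in 2 of 19 and 5 of 64. The median G and C content was 60.3% for the members' promoters, against 58.7% for all promoters and 64.7% for those of tested genes. A match describes the letters of the window and is not a measured binding site.

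Of the 51 large-subunit genes 15 fell (29.4%), 0 rose and 36 did not pass, with a median log2 fold change of -0.10. That share is near the 26% of tested genes between the members' quartiles of abundance that fell, though the 51 genes span a wider range. Between the lowest and the highest member 19.1% of tested genes fell and 16.5% rose. Differences from these shares and from the small subunit were not tested. Leading those that fell was MRPL15 (ENSG00000137547), the counterpart of a bacterial large-subunit protein that joins late in assembly. It measured 62.1 and 61.3 CPM in the shNUP153 libraries, against 96.1 and 93.5 CPM in the shControl libraries. Both shNUP153 libraries lay well below both shControl libraries (log2 fold change -0.62 ± 0.06 SE, edgeR adjusted p = 7.08e-11), and MRPL15 was the one member that passed as lower under all 14 alternatives tried.

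MRPL23 and MRPL27 followed. MRPL23 (ENSG00000214026), which sits at the exit of the peptide tunnel, measured 40.3 and 40.5 CPM in shNUP153, against 53.9 and 52.5 CPM in shControl (log2 fold change -0.40 ± 0.07 SE, edgeR adjusted p = 1e-05). MRPL27, whose bacterial counterpart reaches toward the peptidyl transferase centre where peptide bonds form, measured 50.9 and 50.6 CPM in shNUP153, against 62.1 and 69.4 CPM in shControl (log2 fold change -0.38 ± 0.06 SE, edgeR adjusted p = 1.56e-05). For both genes the shNUP153 libraries nearly coincided and lay wholly below the shControl libraries.

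Other large-subunit members with a bacterial counterpart fell by less. MRPL16, near the peptidyl transferase centre, measured 124.3 and 113.7 CPM in shNUP153 and 143.9 and 139.2 CPM in shControl (edgeR adjusted p = 0.000324). MRPL35 measured 54.3 and 53.8 CPM in shNUP153 and 67.2 and 63.4 CPM in shControl (edgeR adjusted p = 0.000684). MRPL3, whose bacterial counterpart binds early in assembly, measured 254.5 and 263.1 CPM in shNUP153 and 293.6 and 290.5 CPM in shControl (edgeR adjusted p = 0.00295). In all 3 the groups did not overlap, with log2 fold changes of -0.25, -0.27 and -0.17. MRPL19, whose bacterial counterpart lies at the interface of the subunits, measured 57 and 56.2 CPM in shNUP153 and 68.9 and 62.5 CPM in shControl (log2 fold change -0.21, edgeR adjusted p = 0.00791). MRPL17 and MRPL13 fell by 0.17 and 0.18 on the log2 scale (edgeR adjusted p = 0.0198 and 0.0236).

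Among mitochondria-specific proteins of the large subunit MRPL48, part of the central protuberance, had the smallest p. It measured 25.9 and 28.1 CPM in shNUP153, against 31.5 and 35.3 CPM in shControl (log2 fold change -0.31 ± 0.08 SE, edgeR adjusted p = 0.00265). MRPL54, MRPL40, MRPL43 and MRPL37 also fell, by 0.22, 0.21, 0.20 and 0.14 on the log2 scale. MRPL44, which has an RNase III-like fold, was the member nearest to the threshold on the inside, at 40.9 and 40.9 CPM in shNUP153 and 47.1 and 45.2 CPM in shControl (edgeR adjusted p = 0.0462). MRPL45, which helps anchor the ribosome to the inner membrane, did not pass, at 81.1 and 85.3 CPM in shNUP153 and 78.4 and 81.5 CPM in shControl (log2 fold change 0.06 ± 0.06 SE). MRPL58, a peptidyl-tRNA hydrolase built into the large subunit, measured 51.5 and 50.7 CPM in shNUP153 and 53.7 and 55.9 CPM in shControl (edgeR adjusted p = 0.231), so its libraries did not overlap but the difference missed the test.

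In the small subunit 5 of 26 members fell (19.2%), 2 rose (7.69%) and 19 did not pass. Their median log2 fold change was -0.10. Over all tested genes 17.4% fell and 15% rose, so the share that fell is near that background. MRPS9, a counterpart of a bacterial protein of the small-subunit head, fell furthest, at 25.2 and 26.4 CPM in shNUP153, against 34.3 and 34 CPM in shControl (log2 fold change -0.40 ± 0.08 SE, edgeR adjusted p = 8.07e-05). MRPS27, a pentatricopeptide repeat protein of a class that binds RNA, measured 59.9 and 61.2 CPM in shNUP153, against 74.9 and 72.8 CPM in shControl (log2 fold change -0.29 ± 0.06 SE, edgeR adjusted p = 0.00022). Each pair of shNUP153 libraries lay clear of the shControl pair. MRPS22, MRPS2 and MRPS18B also fell, by 0.17, 0.17 and 0.15 on the log2 scale (edgeR adjusted p = 0.0201, 0.0421 and 0.0431).

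The 2 members that rose were both in the small subunit. MRPS6, the counterpart of a bacterial platform protein, measured 17.5 and 20.5 CPM in shNUP153, against 14.5 and 15.5 CPM in shControl (log2 fold change 0.34 ± 0.10 SE, edgeR adjusted p = 0.00837). MRPS35, which is mitochondria-specific, measured 95.3 and 92.8 CPM in shNUP153, against 86.5 and 81 CPM in shControl (log2 fold change 0.17 ± 0.06 SE, edgeR adjusted p = 0.0188). The groups did not overlap in either gene. Without shNUP153 replicate 2 neither passed (MRPS6 adjusted p = 0.246, MRPS35 adjusted p = 0.108), and MRPS35 also missed the test without shNUP153 replicate 1 (0.232) or shControl replicate 2 (0.163). Of the exonic bases of MRPS6, 9.61% are shared with genes on the same strand. AP000317.2, with 0 counts in each library, overlaps 6.84% of them, and SLC5A3, a transporter gene with 589 to 666 counts in each library, overlaps 6.35%.

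The 3 members that share the name MRPS18 sit in different places of the ribosome. MRPS18A, in the large subunit, measured 18 and 18.4 CPM in shNUP153 and 19.3 and 19.3 CPM in shControl (edgeR adjusted p = 0.512). MRPS18B, in the small subunit, measured 85.9 and 80.4 CPM in shNUP153 and 92.5 and 91.6 CPM in shControl, which passed the test. MRPS18C, the one classed as the bacterial counterpart, measured 3.58 and 4.21 CPM in shNUP153 and 4.24 and 4.16 CPM in shControl, with overlapping groups (edgeR adjusted p = 0.693). MRPS30 lay above its controls without passing, at 89.7 and 87.9 CPM in shNUP153 and 86.6 and 82.4 CPM in shControl (edgeR adjusted p = 0.342). MRPS12, which forms part of the decoding centre, lay below them, at 50.2 and 50.9 CPM in shNUP153 and 52.2 and 56 CPM in shControl (edgeR adjusted p = 0.241). MRPS36, outside the ribosome, measured 13.9 and 13.9 CPM in shNUP153 and 14.3 and 15.3 CPM in shControl (edgeR adjusted p = 0.534).

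**Figure D3:**
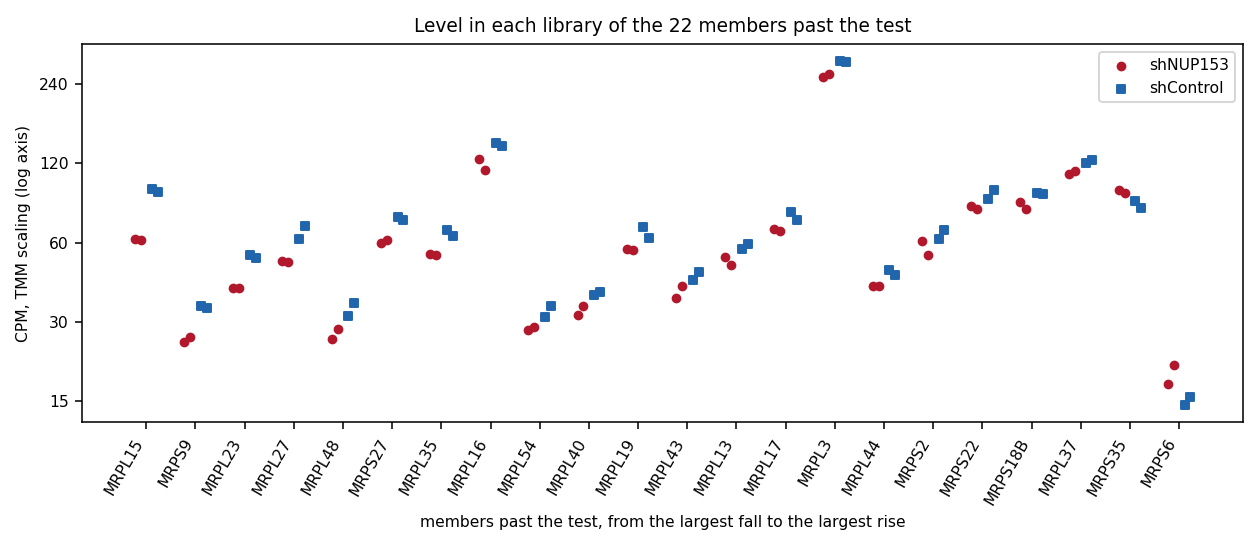
CPM (TMM scaling, log axis) in each of the 4 libraries for the 22 members past the test, ordered from the largest fall to the largest rise, with circles for shNUP153 and squares for shControl. In every gene both circles lie on one side of both squares, below them for the 20 on the left and above them for MRPS35 and MRPS6.

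The members were also grouped by origin. Of 45 members with a bacterial counterpart 11 fell (24.4%) and 1 rose, with a median log2 fold change of -0.10. Of 30 mitochondria-specific members 9 fell (30%) and 1 rose, also with a median of -0.10. Of all tested genes 17.4% fell and 15% rose, and between the members' quartiles of abundance 26% fell and 18.3% rose. Differences from these shares and between the classes were not tested. The 3 members not placed in either class, MRPL55, MRPS18A and MRPS36, did not pass. At the threshold, MRPS18B, MRPS2 and MRPL44 lay just inside, and MRPS25, MRPL20 and MRPS5 just outside with adjusted p of 0.0517, 0.0561 and 0.0565. MRPS25 measured 37.1 and 38.3 CPM in shNUP153 and 41.1 and 44 CPM in shControl, a separation like that of the members inside.

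Which members passed depended on the libraries kept. Without shNUP153 replicate 1, 12 of the 20 members that fell no longer passed (adjusted p 0.0669 to 0.397), and without shNUP153 replicate 2, 11 did not (0.0567 to 0.548). Without shControl replicate 1 this was so for 4 (0.0619 to 0.139), and without shControl replicate 2 for 7 (0.0605 to 0.204). The fit without shControl replicate 1 had 21 lower and 2 higher members, beside 16.2% lower and 13.1% higher over all tested genes, and that without shControl replicate 2 had 16 lower and 4 higher, beside 16% lower and 12.2% higher. MRPL15, MRPL23, MRPL27, MRPL35, MRPS9 and MRPS27 passed in each of these 4 fits. In such a fit the lone library of a group is assumed to vary like the pair of the other. DESeq2 called 10 of the 20 and no other member (12.8% lower, 0 higher), beside 14.5% lower and 8.32% higher over the 14083 genes it tested, so by DESeq2 the members were lower no more often than all genes. A limma fit without a variance trend, added after the data were seen, called MRPL15 alone of the 20 (1.28% of members), beside 2.32% lower and 2.34% higher over all tested genes.

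Levels were compared between members as CPM per kilobase of coding sequence. The median over the 78 was 76.7 in shNUP153 and 86.3 in shControl, and the quartiles ran from 50.2 to 135.3 in shNUP153 and from 54.7 to 146.9 in shControl. Large-subunit members had a median of 88.1 in shNUP153 and 92.8 in shControl, and small-subunit members 73.8 in shNUP153 and 79.4 in shControl. Highest of all were the mitochondria-specific MRPL49, at 374.5 in shNUP153 and 380.1 in shControl, and MRPL51, at 368.5 in shNUP153 and 359.6 in shControl. Neither passed the test, and their groups overlapped in CPM. Across the 78 genes the level per kilobase was lower for longer coding sequences (Spearman's rho -0.381, a description across genes that share libraries and whose level is divided by that same length).

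Several of the lowest levels belonged to members whose annotation overlaps another gene. MRPL38 was lowest per kilobase, at 2.2 in shNUP153 and 2.15 in shControl, followed by MRPS24, MRPS28, MRPL46, MRPS18C, MRPL53 and MRPL12. In GENCODE v29, 6 of the 10 lowest members share exonic bases with another gene on the same strand, against 10 of the other 68. MRPL12, a stalk protein that also binds the mitochondrial RNA polymerase, shares 68.2% of its exonic bases with AC139530.2, listed at 0 in all 4 libraries. MRPS24 shares 23.2% with the read-through gene URGCP-MRPS24, also listed at 0, and MRPS28 shares 35.8% with AC036214.3, at 0 as well. MRPL53 shares 45.2% with CCDC142, which had 438 to 551 counts per library. The sources used here do not say how the authors' counting treated reads in shared bases, and its part in these low levels was not tested.

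**Figure D4:**
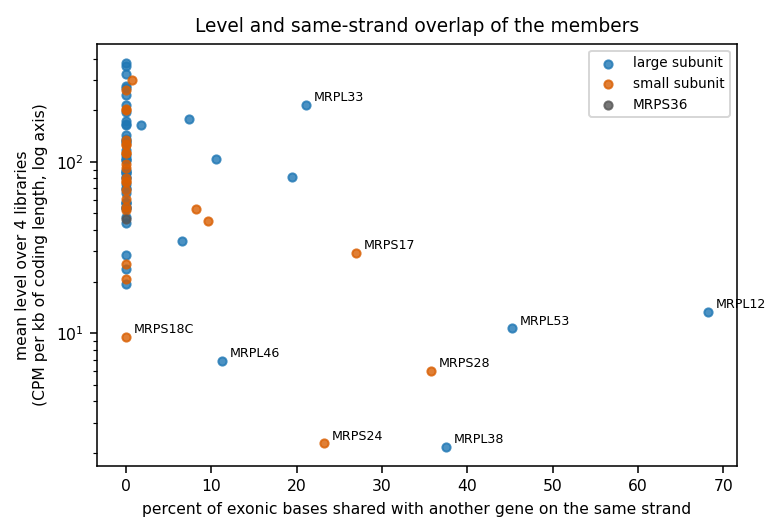
Mean level over the 4 libraries (CPM per kilobase of coding sequence, log axis) of the 78 members against the percent of exonic bases shared with another gene on the same strand. The 4 members that share over 30% lie low, while MRPS18C is low with no base shared on its own strand.

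Members with few counts carried the widest errors. MRPS24 had the highest fold change of the set, at 1.35 and 1.48 CPM in shNUP153, against 0.902 and 0.825 CPM in shControl, yet did not pass (log2 fold change 0.71 ± 0.34 SE, edgeR adjusted p = 0.11). MRPL12 measured 6.67 and 8.47 CPM in shNUP153 and 7.62 and 8.74 CPM in shControl, with overlapping groups (edgeR adjusted p = 0.548). MRPL38, MRPL53 and MRPS28 likewise did not pass. Overlap on the opposite strand was more common, in 29 members, and strand use in counting is not given, so such reads cannot be told apart. Of the 22 members past the test 11 share no exonic base with another gene, MRPL15, MRPL3, MRPS35 and MRPS18B among them, 10 share some on the opposite strand and 1, MRPS6, on the same strand.

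Some proteins of the mitochondrial ribosome have no MRP symbol. They were listed together with MRPL57 and MRPL58, which are also members, 7 genes in all, of which 1 rose and 1 fell (14.3% each). The shares over all tested genes were 15% higher and 17.4% lower. DAP3, a GTP-binding protein of the small subunit, rose, at 116.6 and 112.5 CPM in shNUP153 and 101.9 and 99 CPM in shControl (log2 fold change 0.19 ± 0.05 SE, edgeR adjusted p = 0.00492). PTCD3, a pentatricopeptide repeat protein of the small subunit, fell, at 92.7 and 93.3 CPM in shNUP153 and 105 and 102.1 CPM in shControl (log2 fold change -0.15 ± 0.05 SE, edgeR adjusted p = 0.0235). CHCHD1, GADD45GIP1, AURKAIP1, MRPL57 and MRPL58 did not pass, with log2 fold changes from -0.12 to 0.04. DAP3 did not pass without shNUP153 replicate 1 (adjusted p = 0.15), and PTCD3 did not without either shNUP153 library (0.181 and 0.153) or without shControl replicate 1 (0.0602).

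Factors that build the ribosome and modify its RNA went both ways. Of 27 tested of 28 listed, 6 fell (22.2%), 3 rose (11.1%) and 18 did not pass, with a median log2 fold change of -0.03. The shares over all tested genes were 17.4% lower and 15% higher, and the difference was not tested. RCC1L, needed for assembly, MTERF3, MRM1, a methyltransferase of the large ribosomal RNA, and RPUSD4, a pseudouridine synthase, fell by 0.23, 0.31, 0.27 and 0.27 on the log2 scale. The rises were GTPBP10 and MTG2, both assembly GTPases, and MPV17L2, by 0.17, 0.14 and 0.23 on the log2 scale. Without shNUP153 replicate 1 there were 1 lower and 0 higher, without shNUP153 replicate 2 there were 2 lower and 0 higher, and without shControl replicate 2 there was 1 higher.

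Translation factors of the mitochondrion had 6 of 15 lower (40%), 0 higher and 9 not past the test. Their median log2 fold change was -0.13. Over all tested genes 17.4% were lower and 15% higher. The list runs from 9.03 CPM (TSFM) to 341 CPM (TUFM) on the mean of all libraries. It spans classes of abundance in which 17%, 24.9% and 36% of tested genes fell and 16.5%, 18.7% and 17.9% rose. The difference from these shares was not tested. MRRF, which recycles ribosomes after termination, fell most, at 97 and 93.3 CPM in shNUP153, against 130.9 and 128.2 CPM in shControl (log2 fold change -0.44 ± 0.05 SE, edgeR adjusted p = 2.05e-08). TUFM, the elongation factor that delivers aminoacyl-tRNA, measured 317.5 and 313.8 CPM in shNUP153, against 363.8 and 369 CPM in shControl (edgeR adjusted p = 0.000227). LRPPRC, which with SLIRP stabilises mitochondrial mRNAs, measured 277.3 and 275 CPM in shNUP153, against 321.1 and 311.5 CPM in shControl (edgeR adjusted p = 0.000838). None of these groups overlapped. GUF1, SLIRP and GFM1, the elongation factor that moves the ribosome along, were the other 3. Without shNUP153 replicate 1, 3 genes of the list were lower.

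Of 16 genes for transcription, processing and maintenance of mitochondrial DNA 2 fell (12.5%), 0 rose and 14 did not pass. The shares over all tested genes were 17.4% lower and 15% higher. PNPT1, the mitochondrial polynucleotide phosphorylase, measured 107.6 and 106 CPM in shNUP153, against 170.3 and 172.9 CPM in shControl (log2 fold change -0.68 ± 0.05 SE, edgeR adjusted p = 2.56e-13). ELAC2, which trims tRNA 3′ ends, fell by 0.19 on the log2 scale and did not pass without shNUP153 replicate 2 (adjusted p = 0.307). Of 21 tested of 22 genes for protein import 7 fell (33.3%), 0 rose and 14 did not pass. Their median log2 fold change was -0.11. In the 2 highest classes of abundance 24.9% and 36% of all tested genes fell. The list also holds genes of lower classes, where 7.31% and 17% fell, and the difference was not tested. HSPD1, the matrix chaperonin, measured 1059 and 1085 CPM in shNUP153, against 1386 and 1325 CPM in shControl, and MIPEP, a peptidase that trims imported proteins, 25.5 and 28.3 CPM in shNUP153, against 40.4 and 41.8 CPM in shControl. Their log2 fold changes were -0.34 and -0.61 (edgeR adjusted p = 3.93e-08 and 5.66e-08). TOMM22, a receptor of the outer membrane, and HSPA9, the motor chaperone, also fell, by 0.32 and 0.16 on the log2 scale. Without shNUP153 replicate 1, 3 import genes were lower.

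The RNAs that this ribosome is made with and reads, those encoded by mitochondrial DNA, rose more often than they fell. Of 15 genes 9 rose in shNUP153 (60%), 1 fell (6.67%) and 5 did not pass, with a median log2 fold change of 0.11. In the highest class of abundance 17.9% of tested genes rose and 36% fell, beside 15% and 17.4% over all tested genes. The difference from these shares was not tested. MT-CYB measured 3742 and 4344 CPM in shNUP153, against 3213 and 3443 CPM in shControl (log2 fold change 0.28 ± 0.05 SE, edgeR adjusted p = 1.43e-05). Of the ribosomal RNAs MT-RNR1 measured 507.9 and 543.2 CPM in shNUP153, against 469.2 and 478.3 CPM in shControl (edgeR adjusted p = 0.00867), and MT-RNR2 2541 and 2803 CPM in shNUP153, against 2452 and 2491 CPM in shControl (edgeR adjusted p = 0.0383). MT-CO3 was the one that fell, at 4341 and 4834 CPM in shNUP153, against 5326 and 5357 CPM in shControl (edgeR adjusted p = 7.83e-05). The 15 are among the genes with symbols in MT-, which took 5.77% and 6.59% of counts in shNUP153, against 5.31% and 5.6% in shControl. By that measure shNUP153 replicate 2 stood highest. Without that library 3 were higher and 2 lower, and MT-ND6 changed sign (log2 fold change -0.00374, adjusted p = 0.979). DESeq2 called 2 higher, and neither ribosomal RNA passed without shNUP153 replicate 2 (MT-RNR1 0.267, MT-RNR2 0.625).

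Of the cytosolic ribosomal protein genes, the nearest set in kind, 80 of 81 were tested. In shNUP153 52 fell (65%), 1 rose (1.25%) and 27 did not pass, where 17.4% of all tested genes fell. The highest of the 5 classes of abundance held 71 of them, 50 that fell, where 36% of its genes fell. Without shNUP153 replicate 1, 29 were lower, under total-count scaling 33, and by limma without a variance trend 1. Their median log2 fold change was -0.16, against 0.01 over all tested genes and -0.10 over the mitochondrial set. Summed, they measured 45660 and 46340 CPM in shNUP153, against 50910 and 52390 CPM in shControl. The difference between the sets was not tested.

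**Figure D5:**
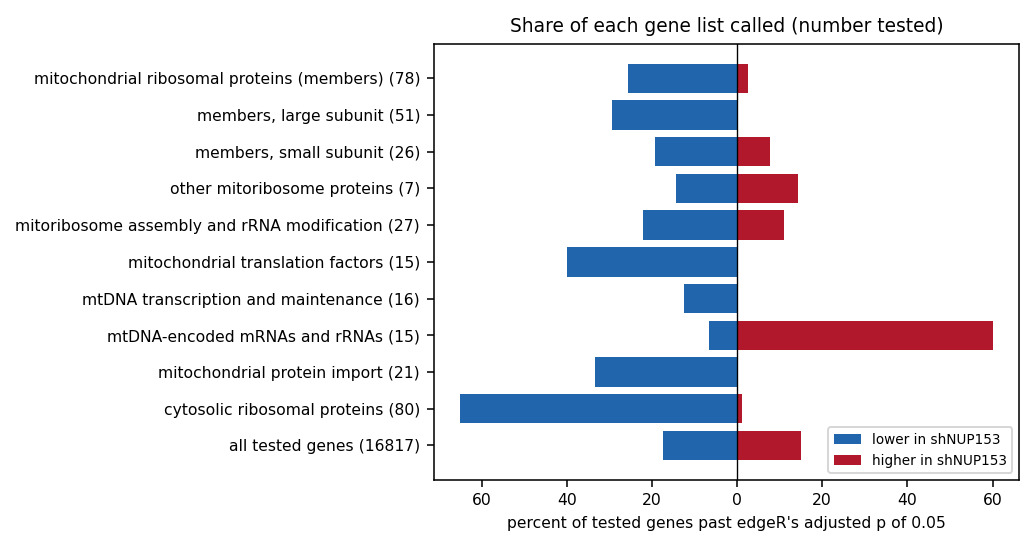
Percent of the tested genes of each list that were lower (left) or higher (right) in shNUP153 by edgeR's test at an adjusted p of 0.05, with the number tested in parentheses and all tested genes at the foot. The members stand at 25.6% lower and 2.56% higher, the translation factors at 40% lower, the genes of mitochondrial DNA at 60% higher and the cytosolic ribosomal proteins at 65% lower, beside 17.4% and 15% over all genes (MRPL57 and MRPL58 count in 2 lists).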

How the data were processed

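Gene counts of 4 libraries were used, as deposited by the authors in 1 table of 56657 entries, of which 24486 were at 0 in all libraries. Its name says FPKM, yet the values are whole numbers with a different total per library, so they were treated as unnormalised counts. Per the submitters' processing notes, the tools were kallisto, DESeq2, Bowtie2 and deepTools and the build hg19, without their roles. The sources used here name neither the tool that counted nor its use of strand. The log2 ratios and p-values in the authors' deposited table were not used.

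The members and gene lists were chosen with earlier results of these data known. Genes were kept by filterByExpr (minimum count 10, total 15), scaled by TMM, and tested with edgeR 4.0.16 in R 4.3.3 (glmQLFit, glmQLFTest, two-sided, Benjamini-Hochberg over 16817 genes, threshold 0.05), with 2 residual degrees of freedom per gene. The procedure was also run on simulated counts in which few genes were changed. That run could not test how the calls depend on the scaling. Each SE given is the absolute log2 fold change divided by the square root of edgeR's F statistic. Its variance thus draws on other genes and not on the libraries of that gene alone. Alternatives used limma 3.58.1 and DESeq2 1.42.0, other scalings and filters, and each library left out. Replicates differed by more than sampling noise (chi-square per gene 3.09 in shNUP153 and 3.57 in shControl, over genes with 20 or more counts).

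Exon overlap and coding length came from GENCODE v29 (GRCh38), in which all 56612 gene IDs of the table were found; coding length is that of the longest protein-coding transcript, in place of the planned RefSeq protein length. Promoter sequences are RefSeq's, build GRCh38.p14. Genes were named by rule: the members with the smallest p (up to 12 per direction), those nearest the threshold, those highest or lowest in CPM, MRPL12, MRPL45, MRPL58, MRPS12, the MRPS18 genes, MRPS27, MRPS30 and MRPS36, and up to 4 genes per list. Other genes named were chosen after their values were seen.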

Additional observations from a re-analysis of the deposited data

How the results depend on the processing

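The members' median lay below that of all genes under every alternative, by 0.0768 to 0.134 on the log2 scale, and was -0.0353 under total-count scaling. All alternatives reuse the same libraries, and a change of scaling alone could not move this gap. It was smallest with a minimum mean of 5 CPM and largest without a filter, settings that change which genes form the background. DESeq2 size factors in edgeR and limma with prior counts of 2 and 0.5 gave the same 20 lower and 2 higher. Total-count scaling gave 8 lower and 5 higher members, DESeq2 10 and 0, and limma without a variance trend (added after seeing the data) 1 and 1, MRPS24 being the higher one. A second added fit, edgeR without an abundance trend in its prior, gave 16 and 2. Leaving out 1 library gave 8 to 21 lower and 0 to 4 higher members, and 1769 to 2874 lower and 1303 to 2327 higher over all genes. DESeq2 called 2043 genes lower and 1172 higher, and limma without a trend 390 lower and 393 higher. The cause of these differences was not tested.

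No pairing by replicate number was seen: within-group deviations of same-numbered libraries correlated at -0.00365 over all tested genes. With 2 libraries per group this value cannot tell whether same-numbered libraries were handled together, and the labels do not say. A fit with the replicate block gave 19 lower and 2 higher members, MRPL44 no longer passing (adjusted p = 0.0547), and 1 translation factor higher in place of 0.

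Lists of other genes moved as follows. Under total-count scaling the lower and higher counts were 0 lower for other mitoribosome proteins, 3 and 5 for assembly factors, 3 and 1 for translation factors, 1 and 1 for genes of mitochondrial DNA transcription, 1 higher for import, and 1 and 4 for regulators. DESeq2 gave 0 lower other mitoribosome proteins, 1 lower and 0 higher assembly factors, 1 lower transcription gene and 2 higher genes of mitochondrial DNA. For the lists just named, limma without a trend gave 0 in each direction except 1 lower transcription gene, PNPT1. Without a filter 1 assembly factor was higher; with a minimum mean of 5 CPM, 5 assembly factors, 1 translation factor and 1 transcription gene were higher. DESeq2 size factors gave 1 higher translation factor.

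With 1 library left out, the ranges were 0 to 1 lower and 0 to 1 higher for other mitoribosome proteins, 1 to 7 lower and 0 to 2 higher for assembly factors, 3 to 6 lower and 0 to 1 higher for translation factors, 1 to 3 lower and 0 to 1 higher for transcription genes, 1 to 2 lower and 3 to 12 higher for genes of mitochondrial DNA, 3 to 8 lower for import and 1 to 3 lower for regulators. Cytosolic ribosomal protein genes numbered 33 lower under total-count scaling, 1 lower and 0 higher by limma without a trend, and 29 to 55 lower and 0 to 1 higher with 1 library left out. The MT-ND6 log2 fold change ran from -0.00374 (without shNUP153 replicate 2, a reversal) to 0.476 (without shNUP153 replicate 1). Counts of 28 to 6775 per member (mean over libraries) set the precision, with SE from 0.05 to 0.34 on the log2 scale.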

Other observations

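Regulators of nuclear genes for mitochondrial proteins moved in both directions. Of 12 tested of 13 listed, 2 rose in shNUP153, 2 fell (16.7% each) and 8 did not pass edgeR's test. Their median log2 fold change was 0.08. The shares over all tested genes were 15% higher and 17.4% lower. MYC, a growth-promoting transcription factor, rose, at 199.1 and 197.3 CPM in shNUP153, against 155.5 and 160.2 CPM in shControl (log2 fold change 0.33 ± 0.05 SE, edgeR adjusted p = 1.36e-06). ESRRA, a nuclear receptor that acts with PGC-1 coactivators, rose as well, at 208 and 199.1 CPM in shNUP153, against 161 and 178.4 CPM in shControl (edgeR adjusted p = 0.000117). SP1, a general factor of promoters rich in G and C, fell, at 94.6 and 92.3 CPM in shNUP153, against 126.9 and 111 CPM in shControl (edgeR adjusted p = 1.08e-05). PPRC1, a coactivator of the PGC-1 family, fell by 0.16 on the log2 scale, and did not pass without either shNUP153 library (adjusted p = 0.118 and 0.165) or without shControl replicate 1 (0.0767).

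NRF1, YY1 and, of the ETS family, GABPA did not pass. NRF1 measured 12.9 and 13.3 CPM in shNUP153, against 12.4 and 11.6 CPM in shControl (edgeR adjusted p = 0.408). GABPA, the DNA-binding part of GABP, measured 24.2 and 24.9 CPM in shNUP153, against 25.9 and 22.4 CPM in shControl (edgeR adjusted p = 0.864). YY1 measured 151 and 156.7 CPM in shNUP153, against 144.3 and 148.5 CPM in shControl (edgeR adjusted p = 0.295), and passed as higher under total-count scaling (0.0339).

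Pseudogenes took almost no counts. Of the 74 pseudogenes named after 34 of the members 51 were at 0 in all 4 libraries and 23 had a count. They held 467 counts in all, against 487772 for the members. 3 passed the filter on low counts, MRPL45P2 with 52 and 50 counts in shNUP153 and 54 and 42 in shControl, MRPS31P5 with 26 and 18 in shNUP153 and 25 and 15 in shControl, and MRPS31P4 with 11 and 16 in shNUP153 and 9 and 14 in shControl. The sources used here do not say how reads shared with such copies were counted.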
